A study of Caenorhabditis elegans with 11 samples.

Results

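The comparison described here is that of early embryos of a *sin-3* mutant strain with early embryos of the wild-type strain of the nematode *Caenorhabditis elegans*. Its members were chosen by strain, as the labels give it: 2 *sin-3* and 3 wild-type RNA-seq libraries, 5 of the 11 libraries of the series, with every gene of the count table. The wild-type group was the N2 (Bristol) reference strain, and the mutant group carried *sin-3(tm1276)*, for which the study lists an outcrossed strain and one kept over a balancer. Which of these gave the embryos is not given in the sources used here. Embryos of both groups were released from young adults by hypochlorite treatment, no agent was given to either, and each library came from its own biological replicate. The labels also carry a B number, 1 to 3 for wild-type and 4 or 6 for *sin-3*, whose meaning they do not give. No B number occurs in both strains, so within these 5 libraries whatever it marks cannot be told apart from the strain. The *cfp-1* libraries share B numbers with both strains, and the *set-2* libraries with wild-type only. B number 4, in 1 *cfp-1* library, is the only link of *sin-3* to another strain, and number 6 occurs in no other library. A fit with the B number as a block, chosen after seeing the data, rests on this link and leaves 2 residual degrees of freedom. In it edgeR's quasi-likelihood test called 0 genes, with 611 higher and 528 lower at an unadjusted p under 0.05. In that fit the median standard error was 2.27 times larger, and of the genes called without the block 9 that rose had a negative and 24 that fell a positive fitted change. All calls given here are those of the fit without it. The other 6 libraries, 3 of *cfp-1* and 3 of *set-2* mutant embryos, entered the fit to estimate the spread and served where a *sin-3* value was set directly against another mutant.

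SIN-3 is the only worm member of a family of scaffold proteins that hold class I histone deacetylases and carry them to chromatin through DNA-binding factors. Removal of acetyl groups from histones is mostly known for keeping genes off, although SIN3 complexes are also found at genes that are transcribed. CFP-1 and SET-2 belong to another complex, SET1/COMPASS, which places methyl groups on lysine 4 of histone H3 at active promoters. The early worm embryo begins with RNA and protein stored in the oocyte, and stored maternal RNA is broken down as the embryo's own genes are switched on lineage by lineage.

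Wild-type libraries held 26359923 to 30845111 counts and *sin-3* libraries 21596949 and 31792087. Protein-coding genes took between 97.45% and 98.77% of the counts over the 11 libraries, and the 10 genes with the most counts took 3.46% to 4.78%. A mean normalised count above 10 left 11547 protein-coding genes for testing. Libraries of one strain differed by more than sampling noise, which alone gives a chi-square per gene of 1. The value was 8.72 between the *sin-3* libraries and 18.1 to 43.2 between wild-type libraries. Values below are normalised read counts, which are counts scaled to a library of average effective size, and are listed for single genes in the order of the replicates and for sums from lowest to highest. Such values compare one gene between strains and are not corrected for the length of the gene. In embryos sequenced whole, fewer cells of a type and less RNA per cell cannot be told apart.

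The transcript of the mutated gene was less abundant than in wild-type. The *sin-3* gene (WBGene00004117, forward strand of chromosome I, 8416816 to 8425051 in WBcel235) had 10195, 8078 and 9916 normalised counts in wild-type and 3909 and 4447 in *sin-3* embryos. The strains did not overlap. The log2 fold change was -1.17 (standard error 0.16, quasi-likelihood adjusted p = 0.000721). A gene's count covers the whole of its exons and does not show which part of the transcript was left.

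Of the 11 genes of the SIN3 complex list, *sin-3* fell, 3 others rose and 7 did not pass the test, among all genes tested of which 12.6% were called higher and 12.6% lower. The 3 that rose were *arid-1*, which encodes an ARID domain protein, *athp-1*, which encodes a PHD finger protein, and *ing-3*, of the ING family of PHD finger proteins. The *arid-1* transcript had 11829, 11244 and 13597 normalised counts in wild-type and 19057 and 22632 in *sin-3*, and the log2 fold change was 0.77 (standard error 0.14, quasi-likelihood adjusted p = 0.00242). Both mutant libraries lay well above wild-type for this gene, which was also higher than in *cfp-1* embryos by 0.91 and than in *set-2* embryos by 1.14 on the log2 scale. The changes of *athp-1* (0.41, standard error 0.13, quasi-likelihood adjusted p = 0.0372) and *ing-3* (0.43, standard error 0.13, quasi-likelihood adjusted p = 0.0335) were smaller. Leaving out any 1 of the 5 libraries ended the call of *ing-3*, with adjusted p from 0.0579 to 0.157. Leaving out wild-type replicate 1 or 2 or *sin-3* replicate 1 or 2 ended that of *athp-1*, with adjusted p from 0.0703 to 0.237.

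The gene for the class I deacetylase HDA-1, *hda-1*, had 13290.3, 11894 and 13556 normalised counts in wild-type and 13792 and 12620.2 in *sin-3*, a log2 difference of 0.03 (standard error 0.14). The values of *hda-2* (-0.02, standard error 0.09), *mrg-1* (0.13, standard error 0.12), which encodes a chromodomain protein, and *lin-53* (0.05, standard error 0.11), which encodes a histone-binding WD40 protein, were as small. The third deacetylase gene, *hda-3* (0.27, quasi-likelihood adjusted p = 0.0744), did not pass this test but was called higher by DESeq2 (0.30, adjusted p = 0.0248), with DESeq2's size factors in edgeR (adjusted p = 0.0483), over the 5 libraries alone (0.0288) and without *set-2* replicate 2 (0.0301). Neither *rba-1* (-0.21, adjusted p = 0.247) nor *suds-3* (standard error 0.19, adjusted p = 0.988) passed the quasi-likelihood test.

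Of the 11 genes of the SET1 and MLL complex list, *cfp-1* rose and the others did not pass the test. The *cfp-1* gene, whose product binds unmethylated CpG in other species, had 3983, 4176 and 4202 normalised counts in wild-type and 5653 and 6351 in *sin-3*. Both *sin-3* libraries lay above the 3 wild-type libraries, which were close together. The log2 fold change was 0.54 (standard error 0.14, quasi-likelihood adjusted p = 0.0161), and without *sin-3* replicate 2 it was 0.46 with an adjusted p of 0.137. The methyltransferase gene *set-2* had 9684, 7932 and 9719.7 normalised counts in wild-type and 9411 and 10659.6 in *sin-3* (log2 fold change 0.14, standard error 0.22, quasi-likelihood adjusted p = 0.678). For the subunit genes *wdr-5.1*, *ash-2*, *dpy-30* and *rbbp-5* the log2 fold changes were -0.03, 0.31, -0.03 and -0.31. The list also held *swd-2.2* (-0.13), while the subunit that the study names is SWD-2.1, whose gene was not in the list. For *set-16*, *utx-1*, *pis-1* and *hcf-1*, which belong to the MLL-type complex or associate with these complexes, the log2 fold changes were -0.27, -0.13, -0.41 and 0.13. *ash-2* was called higher over the 5 libraries alone (quasi-likelihood adjusted p = 0.017) and without *cfp-1* replicate 1 (0.0378). *pis-1* was called lower over the 5 libraries alone (0.039) and without *set-2* replicate 2 (0.0408). Of 4 genes for enzymes that remove methyl groups from lysine 4, *lsd-1* and *amx-1* rose, each by 0.45 on the log2 scale (quasi-likelihood adjusted p = 0.00932 and 0.00816). Without *sin-3* replicate 2 neither was called, with adjusted p of 0.11 and 0.0662.

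Over all genes, increases and decreases were called in nearly equal number, and more of the large changes were increases. The quasi-likelihood test called 1456 genes higher (12.6%) and 1450 lower (12.6%), together 25.2% of those tested. The counts given for gene lists below are to be read beside these shares. The median log2 fold change was 0.76 among genes called higher, -0.75 among those called lower and -0.03 over all genes tested. Changes beyond 2-fold were found for 535 genes that rose and 403 that fell, and beyond 4-fold for 138 and 62. The strains did not overlap for 60.8% of genes, with both *sin-3* libraries above every wild-type library for 30.1% and below for 30.7%. With only 2 mutant libraries the number of calls rests on each of them: 577 and 335 genes were called higher and lower without *sin-3* replicate 1, and 582 and 431 without *sin-3* replicate 2. Without wild-type replicate 1, 2 or 3 the numbers were 970 and 1075, 1077 and 889, and 1123 and 1136. None of the called genes turned its direction when any library was left out.

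**Figure D1:**
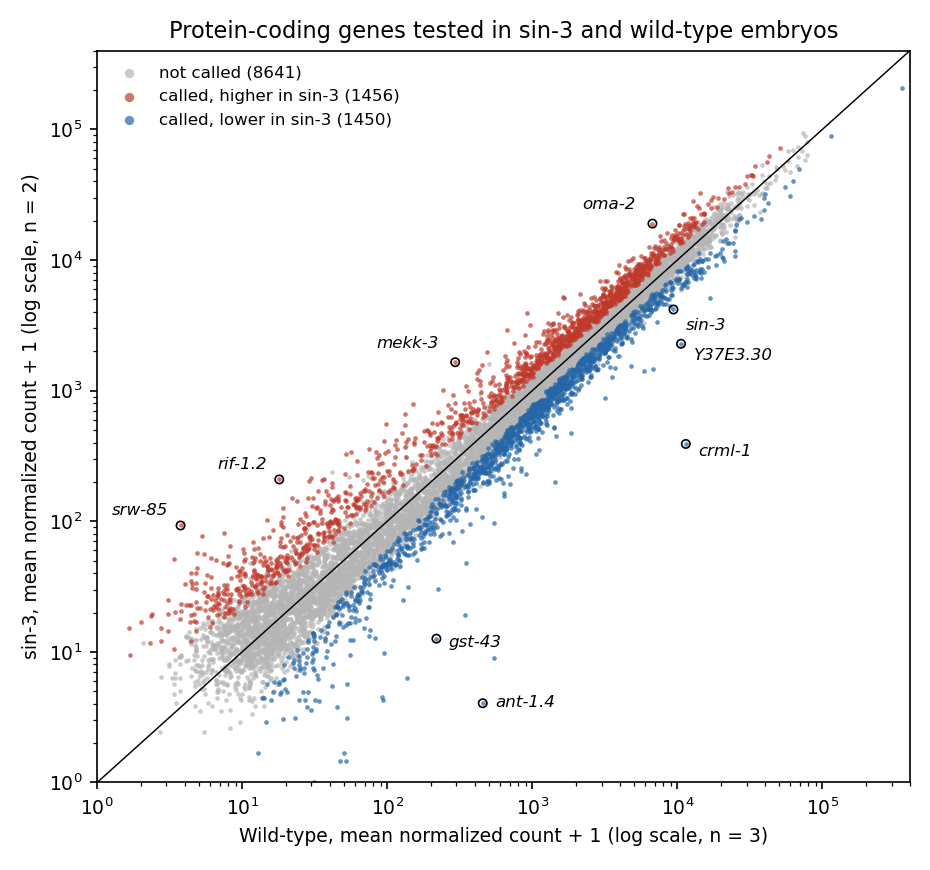
Mean normalised count + 1 of each of the 11547 tested genes in wild-type (horizontal axis, log scale, n = 3) and *sin-3* embryos (vertical axis, log scale, n = 2), 1 point per gene, with red for the 1456 genes called higher, blue for the 1450 called lower, grey for the rest and the diagonal for equal values. Called genes lie on both sides of the diagonal at all levels, and *crml-1* stands farthest below it among abundant genes.

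The 12 genes with the largest decrease, among those with at least 100 normalised counts on average in wild-type, were *ant-1.4*, *ant-1.3*, *crml-1*, *msrp-2*, *T08B2.11*, *gst-43*, *C04F12.5*, *F37A4.5*, *Y11D7A.7*, *scb-1*, *F45E1.4* and *Y37E3.30*. For each of them both *sin-3* libraries lay below every wild-type library, as the rule that chose them requires, and none lost its call when 1 of the 11 libraries was left out.

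The most abundant of these was *crml-1*, which encodes a CARMIL protein, a regulator of actin capping. It had 10730.4, 11062 and 12516 normalised counts in wild-type and 330.4 and 448 in *sin-3*. The libraries of each strain were close together and the strains were far apart, and the log2 fold change was -4.87 (standard error 0.26, quasi-likelihood adjusted p = 1.11e-06). The transcript was also lower than in *cfp-1* embryos (-5.28, quasi-likelihood adjusted p = 8.2e-07) and than in *set-2* embryos (-4.56, adjusted p = 4.9e-06). Against these mutants, 6.24% and 19.9% of all genes tested were lower in *sin-3*.

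The glutathione S-transferase gene *gst-43* had 208, 247 and 196 normalised counts in wild-type and 11 and 12.2 in *sin-3* (log2 fold change -4.20, standard error 0.27, quasi-likelihood adjusted p = 5.28e-06). It was lower than in *cfp-1* by 4.25 and than in *set-2* by 4.60 on the log2 scale. *T08B2.11* had 289, 366 and 365 normalised counts in wild-type and 19.2 and 17 in *sin-3* (-4.23, standard error 0.35, quasi-likelihood adjusted p = 4.49e-05). Every wild-type library held over 10 times the count of either mutant library in both genes. *C04F12.5* went from 266, 401 and 373 normalised counts in wild-type to 45.2 and 48.1 (-2.89), and *Y11D7A.7* from 1125, 1740.3 and 1421 to 154 and 240.3 (-2.85). *scb-1* went from 494, 616 and 528 to 106 and 84.8 (-2.53). These 3 were also lower than in both other mutants, by 2.48 to 3.02 against *cfp-1* and by 2.78 to 3.04 against *set-2* on the log2 scale. *F37A4.5* had 133, 297 and 237 normalised counts in wild-type and 19.2 and 39.6 in *sin-3* (-2.88), and *F45E1.4* had 136, 135 and 109 against 26 and 21.7 (-2.41).

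*Y37E3.30* showed another pattern. It had 10411, 11567 and 9791 normalised counts in wild-type and 2442 and 2122 in *sin-3* (log2 fold change -2.21, standard error 0.11, quasi-likelihood adjusted p = 1.11e-06). Between *sin-3* and *cfp-1* the difference did not pass the test (-0.21, quasi-likelihood adjusted p = 0.21), and the transcript was higher than in *set-2* embryos by 0.44. The other abundant transcripts with large decreases were *Y46H3C.7* (7277, 5704 and 7253 against 1659 and 1263 normalised counts), *Y46H3C.5* (6368, 5099.6 and 6139 against 1578 and 1241), *Y116A8B.1* (2459, 3692 and 3383 against 969 and 780.1) and *E01G4.5* (14780.2, 18782 and 17069 against 5573 and 4602). Their log2 fold changes were -2.21, -2.06, -1.86 and -1.73, all called by the quasi-likelihood test (adjusted p = 8.76e-05, 0.000197, 0.00017 and 4.15e-05). *Y46H3C.5* and *Y46H3C.7* overlap on the same strand, so their counts may share reads.

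Of the 12 largest decreases, 6 lie on chromosome I, which also carries *sin-3* and held 2068 of the 11547 genes tested. The distance to *sin-3* was 1.27 Mb for *crml-1* and for *C04F12.5*, 2.2 Mb for *T08B2.11*, 2.33 Mb for *msrp-2*, 5.52 Mb for *gst-43* and 6.27 Mb for *Y37E3.30*. Linked sequence of the mutant strain on this chromosome was not tested. Among all tested genes on chromosome I, 10.2% of those within 1 Mb of *sin-3* were called lower and 16.4% higher. Between 1 and 3 Mb 10.5% were lower, between 3 and 6 Mb 9.89%, and beyond 6 Mb 16%. The 62 decreases beyond 4-fold numbered 11 on chromosome I, 3 on II, 8 on III, 20 on IV, 18 on V and 2 on X. In the same order these chromosomes held 2068, 2132, 1957, 1816, 2011 and 1551 of the genes tested.

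**Figure D2:**
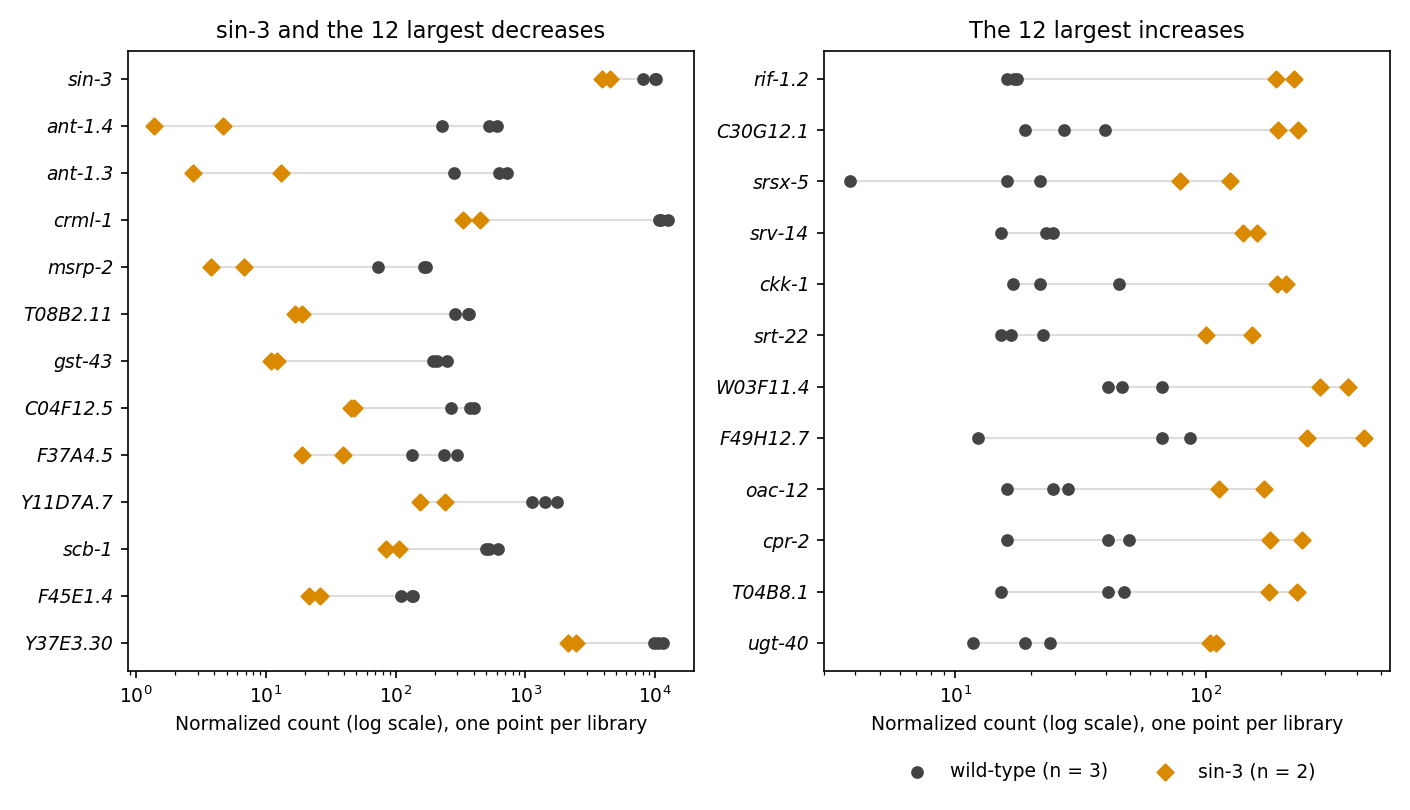
Normalised counts (log scale) in the 3 wild-type (grey circles) and 2 *sin-3* libraries (orange diamonds) for *sin-3* with the 12 genes of largest decrease on the left and the 12 of largest increase on the right, 1 point per library. The strains do not overlap in any row, as the choice of genes requires, and *crml-1* falls from above 10000 to 330.4 and 448 normalised counts.

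Among the largest decreases were a pair of ADP/ATP carrier genes and several genes of sperm. *ant-1.3* and *ant-1.4* encode carriers that exchange ADP and ATP across the inner mitochondrial membrane, and their near-identical sequences may split reads between them. *ant-1.4* had 229, 608 and 525 normalised counts in wild-type and 1.37 and 4.71 in *sin-3*, which are 6 mutant counts in all, so that pooled counts were 138-fold lower with an exact 95% interval for counting error of 63.0 to 376. *ant-1.3* had 279.6, 719 and 627 against 2.74 and 13.2 (log2 fold change -5.95, standard error 0.71, quasi-likelihood adjusted p = 0.000371). Both were lower in *sin-3* than in either other mutant, by 3.82 and 2.65 against *cfp-1* and by 4.38 and 3.48 against *set-2* on the log2 scale. The carrier gene used in most tissues, *ant-1.1*, named after its values were seen, had 65432, 88284 and 82612 normalised counts in wild-type and 64473 and 62232 in *sin-3* (-0.31, quasi-likelihood adjusted p = 0.119). It was called lower without wild-type replicate 1 (-0.43, quasi-likelihood adjusted p = 0.0312).

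*gsp-3* encodes a protein phosphatase 1 of sperm and has a near-identical copy in *gsp-4*. It had 26.8, 62.6 and 58.4 normalised counts in wild-type and 1.37 and 0 in *sin-3*. The 147 pooled wild-type counts stood against 1 in the mutant, a ratio of 89.3 with a counting interval of 15.8 to 3550. *nspd-7*, of a family of small sperm proteins with near-identical copies, had 32.1, 57.8 and 63.6 normalised counts against 0 and 0.942, a pooled ratio of 92.3 (16.3 to 3670). *msrp-2* had 73.9, 171 and 165 against 6.86 and 3.77 (log2 fold change -4.71). Wild-type replicate 1 had the lowest wild-type value in each of these genes. *alg-3* and *alg-4*, Argonautes of the male germ line, followed the same order. *alg-3* had 11.8, 40.8 and 45.8 normalised counts against 5.48 and 0.942, and *alg-4* had 23.6, 24.6 and 30.2 against 2.74 and 3.77. Their log2 fold changes were -3.46 and -2.93 (quasi-likelihood adjusted p = 0.00691 and 0.00177), and *alg-3* was not called without *sin-3* replicate 2 (adjusted p = 0.0928).

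Of the list of sperm genes other than major sperm proteins, 5 of 21 tested members were lower and 4 higher, with a median log2 fold change of -0.26. The minimum of 10 normalised counts left out most of the list, and 11 of 32 members were lower and 3 higher with edgeR's filterByExpr, and 12 of 67 lower and 3 higher with no filter. The number lower and higher was 3 and 1 without *sin-3* replicate 1, 4 and 1 without *sin-3* replicate 2, 5 and 2 without wild-type replicate 1 and 4 and 2 without wild-type replicate 3. *spe-41*, which encodes a TRP-type channel of sperm, was among those higher, with 52.5, 32.2 and 56.3 normalised counts in wild-type and 125 and 130.0 in *sin-3* (log2 fold change 1.44, standard error 0.36, quasi-likelihood adjusted p = 0.0136). Leaving out *sin-3* replicate 1 or 2 ended this call, with adjusted p of 0.0657 and 0.0825. The 31 major sperm protein genes stayed below the level needed for testing, and their summed normalised counts were 49.3 to 88.6 in wild-type and 13.2 to 23.3 in *sin-3*. The part of sperm or spermatocytes carried over with the embryos was not tested.

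The largest increases were from low levels in wild-type. The 12 genes with the largest increase, among those with at least 100 normalised counts on average in *sin-3*, were *rif-1.2*, *C30G12.1*, *srsx-5*, *srv-14*, *ckk-1*, *srt-22*, *W03F11.4*, *F49H12.7*, *oac-12*, *cpr-2*, *T04B8.1* and *ugt-40*. *rif-1.2* had 17.1, 16.1 and 17.7 normalised counts in wild-type and 191 and 225 in *sin-3* (log2 fold change 3.61, standard error 0.27, quasi-likelihood adjusted p = 2.45e-05). *C30G12.1* had 39.6, 19 and 27.1 against 233 and 194 (2.90, standard error 0.34, quasi-likelihood adjusted p = 0.000364). *ckk-1*, which encodes a kinase that activates calmodulin-dependent kinases, had 45, 17.1 and 21.9 against 192 and 209 (2.85, standard error 0.41, quasi-likelihood adjusted p = 0.000869). In all 3 the lower mutant library held over 4 times the count of the highest wild-type library. *C30G12.1* and *ckk-1* were also higher than in *cfp-1* embryos, by 3.81 and 2.90, and than in *set-2* embryos, by 2.59 and 1.98 on the log2 scale, where 5.34% and 20.7% of genes were higher. *rif-1.2* differed from *set-2* by 0.90 (quasi-likelihood adjusted p = 0.012) and did not pass the test against *cfp-1* (0.31, adjusted p = 0.43).

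The O-acyltransferase-like gene *oac-12* had 24.6, 16.1 and 28.1 normalised counts in wild-type and 170.0 and 113 in *sin-3* (log2 fold change 2.62). The UDP-glucuronosyltransferase gene *ugt-40* had 11.8, 19 and 24 against 109.7 and 103.6 (2.54), and *W03F11.4* had 40.7, 46.4 and 66.7 against 370.2 and 285 (2.67). These 3 kept their calls whichever library was left out. *cpr-2*, which encodes a cathepsin B-like protease, had 49.3, 16.1 and 40.6 normalised counts against 243 and 180.0 (2.58), *F49H12.7* had 86.8, 12.3 and 66.7 against 428 and 252 (2.63), and *T04B8.1* had 47.1, 15.2 and 40.6 against 230.3 and 179 (2.58). In each of the last 3, wild-type replicate 2 was the lowest library. None of the 3 was called without *sin-3* replicate 1 by the quasi-likelihood test, with adjusted p of 0.0985, 0.172 and 0.0641. The call was also lost without wild-type replicate 2 (adjusted p = 0.0581) or *sin-3* replicate 2 (0.0576) for *cpr-2*, and without wild-type replicate 2 (0.082), wild-type replicate 3 (0.0673) or *sin-3* replicate 2 (0.0775) for *F49H12.7*.

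The largest increases of abundant transcripts were smaller, although abundant genes were not called higher less often. Of 5 groups of genes by mean normalised count, the highest had 16.6% called higher and the lowest 10.7%. Among genes with at least 2000 normalised counts on average in wild-type, the 6 with the largest increase were *oma-2*, *cbd-1*, *egg-6*, *eat-6*, *sip-1* and *mrp-4*. *oma-2*, which encodes a zinc finger protein needed for oocyte maturation, had 6392, 6345 and 7450.3 normalised counts in wild-type and 20639 and 17352 in *sin-3* (log2 fold change 1.5, standard error 0.14, quasi-likelihood adjusted p = 0.000125). The eggshell gene *cbd-1* had 2084, 1983 and 2332 against 5111 and 5849.9 (1.36), and *egg-6*, which encodes a leucine-rich repeat protein, had 2903, 2513 and 3297 against 6887 and 6857 (1.24). The sodium pump gene *eat-6* had 3598, 3816 and 4424 against 9357 and 9007 (1.22), the embryo small heat-shock protein gene *sip-1* 10848, 16385 and 15925 against 33085 and 32519 (1.19), and the ABC transporter gene *mrp-4* 3240.1, 2862 and 3339 against 6808 and 7102 (1.14). The 2 *sin-3* libraries lay above all wild-type libraries in the 6 genes, and no call among them depended on a single library.

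Chemoreceptor genes, which encode G protein-coupled receptors mostly known from sensory neurons, were among those that rose from low levels. Of 128 tested genes of the receptor families, 41 rose (32%, beside 12.6% of all genes tested) and none fell by edgeR's quasi-likelihood test, with a median log2 fold change of 0.98. These families were separated, after their values were seen, from 15 genes of other families whose names fit the same pattern. Of those 15, the Src-family kinase gene *src-1* and *srlf-1* fell, by 0.46 and 1.01 on the log2 scale. The 41 that rose had a median of 9.37 normalised counts in wild-type and 37.9 in *sin-3*. The minimum of 10 for testing was a mean over all 11 libraries. Genes low in wild-type could therefore pass it through higher mutant libraries, and could hardly be called lower. The share that rose, the lack of decreases and the median are in part set by this minimum. Their number was 12 without *sin-3* replicate 1, 21 without *sin-3* replicate 2, and 27, 25 and 28 without wild-type replicate 1, 2 and 3.

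The largest fitted increase of a receptor gene was that of *srw-85*, with 4.28, 1.90 and 2.08 normalised counts in wild-type and 83.6 and 99.9 in *sin-3* (log2 fold change 5.02, standard error 0.64, quasi-likelihood adjusted p = 0.000493). It was also higher than in *cfp-1* by 4.39 and than in *set-2* by 4.03 on the log2 scale. This did not hold for the list. Among all 143 tested genes whose names fit the receptor pattern, 2 were higher and 4 lower than in *cfp-1* (median -0.20). Against *set-2* 31 were higher and 16 lower (median 0.19). Over all genes tested 5.34% were higher and 6.24% lower than in *cfp-1*, and 20.7% and 19.9% than in *set-2*. Among the 12 largest increases, *srsx-5* had 16.1, 3.79 and 21.9 normalised counts against 125 and 79.1, *srv-14* had 24.6, 15.2 and 22.9 against 160.4 and 141, and *srt-22* had 22.5, 15.2 and 16.7 against 152 and 99.9. Their log2 fold changes were 2.87, 2.85 and 2.79, with quasi-likelihood adjusted p of 0.0207, 0.0252 and 0.00788. The strains did not overlap in these genes, yet the calls were less stable than that of *srw-85*. The call of *srt-22* was lost without *sin-3* replicate 1 (adjusted p = 0.0639), and that of *srsx-5* without wild-type replicate 2 (0.0646), *sin-3* replicate 1 (0.122) or *sin-3* replicate 2 (0.0602). Leaving out any 1 of the 5 libraries ended that of *srv-14*, with adjusted p from 0.0556 to 0.109.

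Of the protein-coding genes, 5997 had at most 3 counts in every wild-type library, and 223 of these had more than 3 counts in both *sin-3* libraries. In the other direction, 166 genes with at most 3 counts in both *sin-3* libraries had more than 3 in every wild-type library. Receptor family genes made up 48 of the 223, beside 17.4% of the 5997, and 2 of the 166, beside 15.7% of the 6138 genes at that limit in both *sin-3* libraries. *F44F4.10* had raw counts of 3, 2 and 2 in wild-type and 36 and 55 in *sin-3*, a pooled ratio of 21.4 with a counting interval of 9.98 to 54.7. *srw-31* had 0, 0 and 1 against 18 and 15, which gives a ratio of 54.3 with an interval of 9.10 to 2210. For *C16D9.5* the ratio was 13.6 (4.83 to 52.8), for *ZC84.7* 10.5 (4.08 to 34.6) and for *F54C8.1* 9.6 (4.00 to 27.9). These intervals are exact 95% intervals and cover counting error only.

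Most listed transcripts of oocyte and maternal genes were higher in *sin-3* embryos. Of 30 tested oocyte and maternal genes, 27 rose and none fell by edgeR's quasi-likelihood test, with a median log2 fold change of 0.82. The number that rose was 21 with either *sin-3* library left out. Their summed normalised counts were 235566 to 280694 in wild-type and 409757 and 410676 in *sin-3*, 1.6 times higher. *chs-1*, which encodes the chitin synthase of the eggshell, had 506, 341 and 506 normalised counts in wild-type and 1478 and 1657 in *sin-3* (log2 fold change 1.80, standard error 0.31, quasi-likelihood adjusted p = 0.00238). The yolk receptor gene *rme-2* had 449.9, 349 and 449 against 1271 and 1474 (1.72), and *cpg-1*, which encodes a chondroitin proteoglycan of the eggshell, had 807, 1112 and 975 against 2986 and 3380.5 (1.72). Each mutant library held over 2 times the count of any wild-type library for these 3 genes.

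Listed regulators of cell fate that embryos switch on themselves mostly had lower values. Of 29 tested embryonic transcription factor genes, 16 fell and none rose by edgeR's quasi-likelihood test, with a median log2 fold change of -0.60. The number was 4 without *sin-3* replicate 1 and 5 without replicate 2. Summed normalised counts were 43235 to 46712 in wild-type and 32657 and 33543 in *sin-3*, a ratio of 0.739. The MyoD homologue *hlh-1*, which specifies body wall muscle, had 1223, 1113 and 1086 normalised counts against 553 and 567 (log2 fold change -1.03, standard error 0.14, quasi-likelihood adjusted p = 0.000681). *nob-1*, a posterior Hox gene, had 808, 804 and 685 against 377 and 385 (-1.01), and the even-skipped homologue *vab-7* had 328, 262 and 252 against 147 and 144 (-0.95). The gut GATA factor gene *elt-2* had 603, 492 and 479 against 252 and 303 (-0.91). The strains did not overlap in these 4 genes. *hlh-1* kept its call with any library left out, *elt-2* lost it without *sin-3* replicate 1 (quasi-likelihood adjusted p = 0.0787), and the others without *sin-3* replicate 1 or 2 (adjusted p = 0.0997 and 0.0802 for *nob-1*, 0.0867 and 0.0788 for *vab-7*).

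Of 30 tested *sdz* genes, named for zygotic transcripts that depend on the maternal factor SKN-1, 5 fell and none rose. Only 1 was called lower without wild-type replicate 2, and 0 by the quasi-likelihood test without *sin-3* replicate 1 or 2. Of 10 *vet* and *pes* genes none was called by the quasi-likelihood test, and 2 fell at an unadjusted p under 0.05. The early zygotic gene *pes-10* had 2209, 2989.6 and 2412 normalised counts in wild-type and 1825 and 1505 in *sin-3* (log2 fold change -0.61, quasi-likelihood adjusted p = 0.0934). By the same test it was called lower over the 5 libraries alone (adjusted p = 0.012), without *cfp-1* replicate 1 (0.016) and with no filter on low counts (0.0428).

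An age score, the mean log2 CPM (counts scaled to library size) of the transcription factor list minus that of the maternal list, was -2.16, -2.36 and -2.64 in wild-type and -3.77 and -3.93 in *sin-3*. The 3 *cfp-1* libraries scored -2.96, -3.53 and -3.76, and those of *set-2* scored -2.21, -2.11 and -2.54. Both *sin-3* libraries lay below every other library, on the side of more RNA of the maternal list, and 3 against 2 libraries cannot give an exact two-sided permutation p under 0.1. When the score was added to the model as a covariate, 2 genes were called higher and 3 lower, and the median standard error was 2.17 times larger. The 5 were the MAP kinase kinase kinase gene *mekk-3* and the zinc finger gene *ztf-18*, which rose, and *crml-1*, *gst-43* and *Y37E3.30*, which fell. *mekk-3* had 338, 248 and 292 normalised counts in wild-type and 1588 and 1711 in *sin-3*, and *ztf-18* had 1058, 814 and 900.3 against 3814 and 3988. These genes were named after their values were seen. Of the genes called without the covariate, 310 that rose then had a negative and 165 that fell a positive fitted change. Genes of the 2 lists are themselves parts of the score, so the loss of their calls is in part built in. How much of any difference goes with the age of the embryos, and how much with the strain at equal age, cannot be told apart in these libraries.

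**Figure D3:**
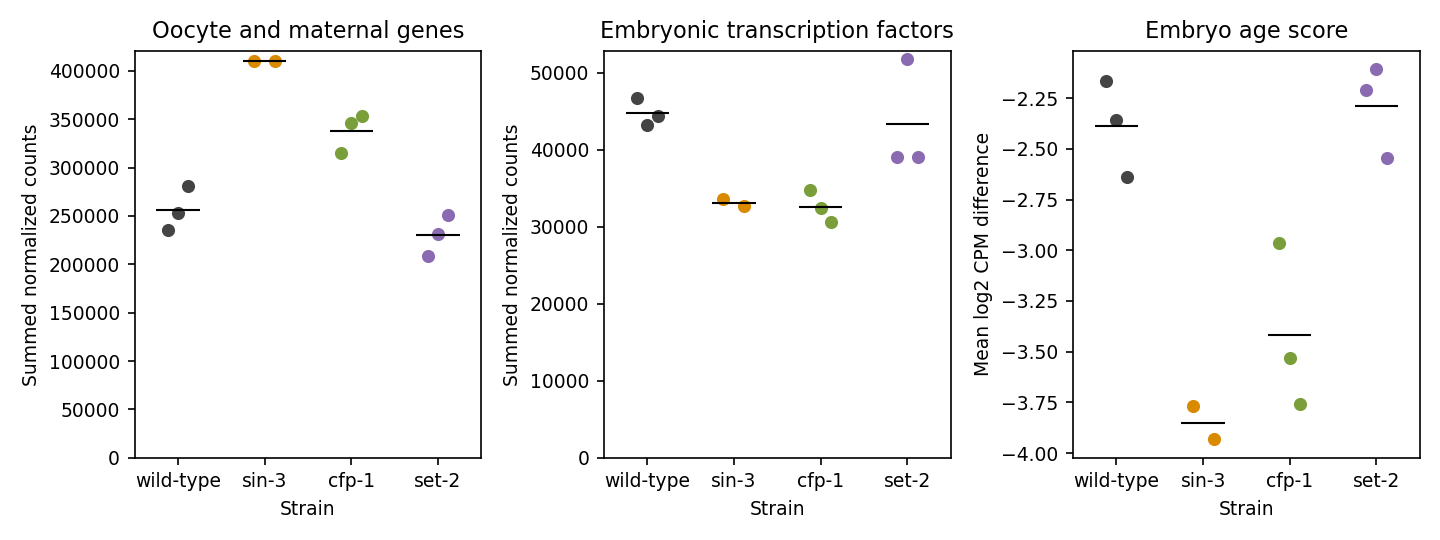
Summed normalised counts of the oocyte and maternal list (left) and the embryonic transcription factor list (middle), and the age score as a difference of mean log2 CPM (right), with 1 point per library for 4 strains and a line at the mean. Both *sin-3* libraries (orange) are the highest of the 11 in the sum of the maternal list, at 409757 and 410676, and their age scores of -3.77 and -3.93 are the lowest of the 11.

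In 3 other lists of germline genes more members rose than fell. Of 15 tested genes for components of P granules, the RNA granules of germ cells, 8 rose and none fell by edgeR's quasi-likelihood test (median 0.60). The number was 4 without *sin-3* replicate 1 and 3 without replicate 2. *pgl-3* had 431, 397 and 477 normalised counts in wild-type and 1113 and 1102 in *sin-3* (log2 fold change 1.35, standard error 0.18, quasi-likelihood adjusted p = 0.000709). *pgl-1* had 5765, 6261 and 7188 against 11651 and 13379 (0.97), and *meg-2* had 1870.2, 1844 and 2436 against 3872 and 4207 (0.98). The strains were apart in all 3, although *meg-2* was not called without *sin-3* replicate 2 (quasi-likelihood adjusted p = 0.0623), nor *pgl-1* without wild-type replicate 1 (0.0544), *sin-3* replicate 1 (0.0597) or *sin-3* replicate 2 (0.116).

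Of 21 tested Argonaute genes, whose products bind small RNAs, 11 rose, and the 2 that fell were *alg-3* and *alg-4* described above. The number that rose was 6 without *sin-3* replicate 1 or 2. *wago-4*, an Argonaute of the germ line, had 691, 618 and 681 normalised counts in wild-type and 1697 and 1722 in *sin-3* (log2 fold change 1.37, standard error 0.22, quasi-likelihood adjusted p = 0.00165). Another that rose, *wago-10*, lay below the minimum mean count for testing in every wild-type library. It was therefore tested only through mutant libraries, and could hardly be called lower. *wago-10* had 6.43, 1.90 and 5.21 against 21.9 and 17.9 (2.12), and was not called without *sin-3* replicate 1 (quasi-likelihood adjusted p = 0.0721) or replicate 2 (0.0507). Of 23 tested genes of the synaptonemal complex and meiotic axis, 8 rose and none fell (median 0.29), but by the same test 0 were called without *sin-3* replicate 1, 1 without *sin-3* replicate 2 or wild-type replicate 1, and 5 without wild-type replicate 2 or 3. One of them was *syp-4*, which encodes a component of the synaptonemal central region, with 1065, 1045 and 1163 normalised counts in wild-type against 1744 and 1612 (0.62). It was not called without *sin-3* replicate 1 (quasi-likelihood adjusted p = 0.0524).

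Genes for the ribosome fell almost without exception. Of 76 tested genes for cytoplasmic ribosomal proteins, 73 fell and none rose by edgeR's quasi-likelihood test, with a median log2 fold change of -0.67. The summed normalised counts of the list were 790455 to 913646 in wild-type and 516000 and 527188 in *sin-3*, a ratio of 0.614. The number called was 44 without *sin-3* replicate 1 and 45 without replicate 2, and 69, 64 and 71 without wild-type replicate 1, 2 and 3. *rps-23* had 21685, 29149 and 24475 normalised counts in wild-type and 12030.5 and 11367 in *sin-3* (log2 fold change -1.1, standard error 0.14, quasi-likelihood adjusted p = 0.00042). *rps-8* had 18845, 23537 and 20208 against 9934 and 9558 (-1.1). Each mutant library held less than every wild-type library by a wide margin for both genes. In direct contrasts 21 of the 76 genes were lower than in *cfp-1* and 14 lower than in *set-2* embryos, and none was higher. Over all genes tested 6.24% and 19.9% were lower in these contrasts.

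Of 68 tested genes for mitochondrial ribosomal proteins, 29 fell and none rose (median -0.37), and the number was 2 without *sin-3* replicate 1, 5 without *sin-3* replicate 2 and 14 without wild-type replicate 2. *mrps-25* had 869.7, 1017 and 937 normalised counts against 419.5 and 463 (log2 fold change -1.09, standard error 0.18, quasi-likelihood adjusted p = 0.00177), with the strains far apart. Of 39 tested translation factor genes 7 fell and 1 rose, and 1 fell without either *sin-3* library and 2 without wild-type replicate 2. Among those that fell was *eef-1A.1*, which encodes the elongation factor that brings charged tRNA to the ribosome. It had 282869, 380761 and 393053 normalised counts against 202510.0 and 208762 (-0.78, standard error 0.15, quasi-likelihood adjusted p = 0.00407). Its adjusted p was 0.054 without *sin-3* replicate 1. The germline initiation factor gene *iff-1* had 18334, 31055 and 24932 against 11607 and 9928 (-1.2), and was not called without *sin-3* replicate 2 (quasi-likelihood adjusted p = 0.0668). Of 31 tRNA synthetase genes 6 fell and 2 rose, but by the quasi-likelihood test 0 fell without *sin-3* replicate 1 and 3 without *sin-3* replicate 2, and 0 rose without either of these or wild-type replicate 1 or 2.

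Most histone genes were lower as well. Of 39 tested histone genes 29 fell and 1 rose, with a median log2 fold change of -1.27, and summed normalised counts went from 101395 to 105906 in wild-type to 63501 and 69262 in *sin-3*, a ratio of 0.639. The number that fell was 15 and 13 without *sin-3* replicate 1 and 2, and 19 without wild-type replicate 2. The list was also lower in direct contrasts, with 22 genes lower than in *cfp-1* and 25 lower than in *set-2* embryos. *his-40* had 113.5, 183.9 and 115.7 normalised counts in wild-type and 32.9 and 28.3 in *sin-3* (log2 fold change -2.18, standard error 0.36, quasi-likelihood adjusted p = 0.00181). *his-31* had 372, 529 and 439.7 against 132 and 82.9 (-2.07). The member that rose was *his-74*, with 3223, 4256 and 3881 against 5262 and 4995 (0.44, quasi-likelihood adjusted p = 0.045). Its call was lost without wild-type replicate 1 or 3 or either *sin-3* library, with adjusted p from 0.0836 to 0.189, and without *cfp-1* replicate 3 (0.0532) or *set-2* replicate 1 (0.0526). Most histone genes have near-identical copies among which reads may be split. Their main transcripts lack a poly(A) tail, and libraries made from polyadenylated RNA count only what such a selection leaves.

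Ribosomal protein and histone genes are short, and the share of genes called moved with exon length. The genes were divided by exon length into 5 groups of like number. Among the shortest (99 to 887 bp of exons) 6.97% rose and 19% fell, and among the longest (2482 to 56044 bp) 15.9% rose and 6.67% fell. The 3 groups between these ran from 12.0% higher and 14.6% lower to 16% higher and 9.79% lower. With ribosomal protein and histone genes left out, which removed 151 of the shortest, 7.41% rose and 14.9% fell there. Across genes, Spearman's correlation of the log2 fold change with exon length was 0.152 and with mean normalised count 0.033, where genes are not independent and share the 5 libraries. The part of RNA quality in this was not tested. By chromosome, genes called higher ranged from 9.54% on X to 16.1% on I, and genes called lower from 9.86% on X to 15.7% on IV. None of the 12 protein-coding mitochondrial genes tested was called by the quasi-likelihood test. Both mitochondrial ribosomal RNA genes were called higher in the fit of all gene types, with log2 fold changes of 0.75 for WBGene00014472 (2021, 3301 and 2037 against 4727 and 3564 normalised counts, quasi-likelihood adjusted p = 0.0285) and 0.89 for WBGene00014454 (549, 678 and 529 against 1309 and 871, adjusted p = 0.0347).

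**Figure D4:**
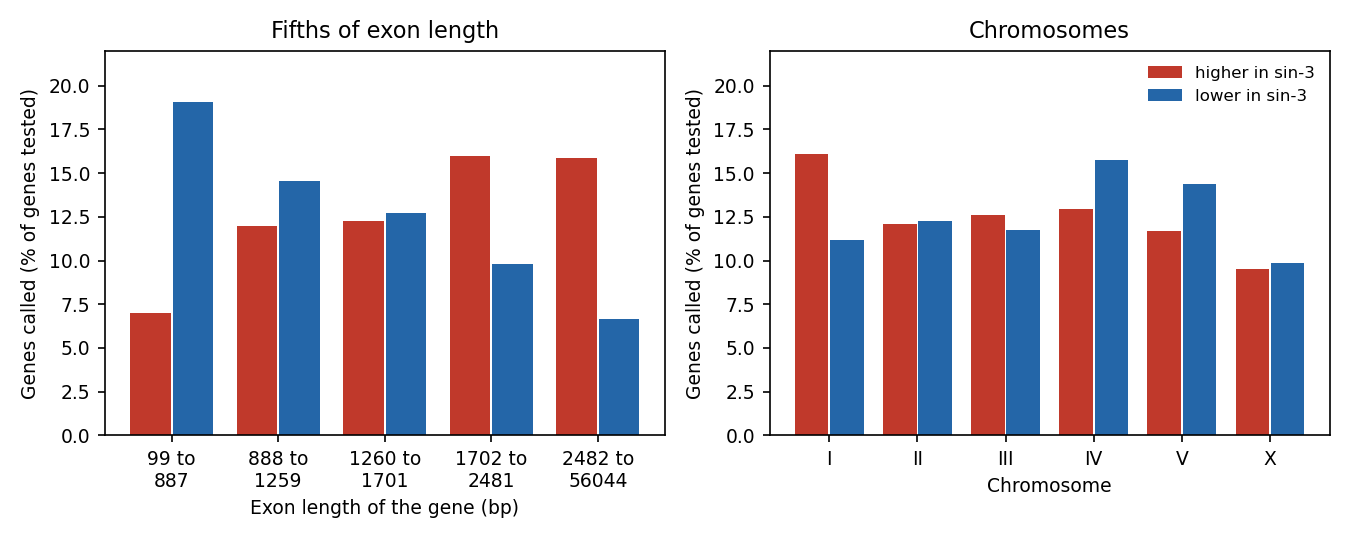
Percentage of tested genes called higher (red) and lower (blue) in *sin-3*, by 5 groups of exon length in bp (left) and by chromosome (right). Genes called lower fall from 19% in the shortest to 6.67% in the longest group, and chromosome I has the highest share of genes called higher, 16.1%.

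Enzymes of central metabolism moved both ways. Of 32 tested genes of glycolysis and the TCA cycle 13 rose and 2 fell, with a median log2 fold change of 0.30. The number that rose was 9 and 7 without *sin-3* replicate 1 and 2. The aconitase gene *aco-2* had 4407, 4842 and 5629.9 normalised counts in wild-type and 10200.2 and 10399.6 in *sin-3* (log2 fold change 1.05, standard error 0.13, quasi-likelihood adjusted p = 0.000493), and the hexokinase gene *hxk-1* had 3806, 3683 and 4179 against 8269.9 and 7709.7 (1.04). The phosphoglycerate mutase gene *ipgm-1* had 301, 323 and 348 against 607 and 682 (0.99). The 2 that fell were *aldo-1*, an aldolase gene with 487, 586 and 548 against 251 and 255 (-1.09, standard error 0.18, quasi-likelihood adjusted p = 0.00197), and the fumarase gene *fum-1*, with 5452, 6960.3 and 7353 against 4249 and 4033 (-0.67). *fum-1* was not called without *sin-3* replicate 1 (quasi-likelihood adjusted p = 0.0573) or replicate 2 (0.0752). Of 51 respiratory chain genes 4 rose and 4 fell (7.84% each), less than the 12.6% of all genes tested called in either direction. Without *sin-3* replicate 1 or 2 the quasi-likelihood test called 2 higher and 0 lower, and without wild-type replicate 1, 2 and 3 it called 2 and 5, 4 and 1, and 2 and 3. Among them the succinate dehydrogenase gene *sdha-1* had 1757, 1667 and 1969 against 3395 and 3555 (0.95). The strains did not overlap in any of these 6 genes.

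Genes of fatty acid metabolism also divided, and of 13 tested desaturase and elongase genes 3 rose and 3 fell. *fat-6*, which encodes a stearoyl-CoA desaturase, had 8.57, 6.64 and 6.25 normalised counts in wild-type and 38.4 and 54.6 in *sin-3* (log2 fold change 2.69, standard error 0.41, quasi-likelihood adjusted p = 0.00127). Every wild-type value of *fat-6* lay below the minimum mean count for testing. This gene was therefore tested only through mutant libraries, and could hardly be called lower. *fat-3*, whose product desaturates polyunsaturated fatty acids, had 849, 859.7 and 828 against 377 and 390.1 (-1.14, standard error 0.12, quasi-likelihood adjusted p = 0.000258). For the list the counts were 1 higher and 1 lower without *sin-3* replicate 1 or replicate 2. Of 39 acyl-CoA enzyme genes 3 rose and 9 fell, and 2 and 1 fell without *sin-3* replicate 1 and 2. Of 15 genes of one-carbon metabolism 3 rose and 3 fell, among them *pmt-2*, a phosphoethanolamine methyltransferase gene of phosphatidylcholine synthesis. It had 3006, 2625 and 2744 normalised counts against 1479 and 1405 (-0.95, standard error 0.16, quasi-likelihood adjusted p = 0.00171).

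Nuclear hormone receptor genes, a large family of ligand-regulated transcription factors in worms, fell more often than they rose. Of 170 tested members 41 fell and 12 rose, with a median log2 fold change of -0.44, and 5 fell without *sin-3* replicate 1, 13 without *sin-3* replicate 2 and 25 without wild-type replicate 1 or 2. The number that rose was 4 without either *sin-3* library and 7 without wild-type replicate 1. *nhr-276* rose from 3.21, 3.79 and 8.34 normalised counts in wild-type to 61.7 and 41.5 in *sin-3* (3.30, standard error 0.68, quasi-likelihood adjusted p = 0.00523). Every wild-type value of *nhr-276* lay below the minimum mean count for testing. This gene was therefore tested only through mutant libraries, and could hardly be called lower. *nhr-156* fell from 32.1, 43.6 and 43.8 to 12.3 and 8.48 (-1.95), and was not called without *sin-3* replicate 1 (quasi-likelihood adjusted p = 0.0597) or replicate 2 (0.115). Of 46 homeobox *ceh* genes 14 fell and 3 rose (median -0.47), and 3 and 6 fell without *sin-3* replicate 1 and 2. The homeobox gene *ceh-45* had 241, 243 and 213 normalised counts against 96.0 and 105 (-1.21, quasi-likelihood adjusted p = 0.00396, and 0.0575 without *sin-3* replicate 1). *ceh-17*, a homeobox gene of certain neurons, went the other way, with 15, 5.69 and 14.6 against 74 and 48.1 (2.37, quasi-likelihood adjusted p = 0.00861, and 0.0755 without *sin-3* replicate 1).

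Of 41 tested C-type lectin genes, many of which belong to innate immunity, 10 rose and 2 fell (median 0.51). The number that rose was 4 without *sin-3* replicate 1 and 3 without replicate 2. *clec-9* had 3.21, 1.90 and 8.34 normalised counts in wild-type and 54.8 and 54.6 in *sin-3* (log2 fold change 3.59, standard error 0.81, quasi-likelihood adjusted p = 0.00849). It passed the minimum of 10, a mean over all 11 libraries, only through mutant libraries, and genes this low in wild-type could hardly be called lower. *clec-73* had 27.8, 59.7 and 68.8 against 1.37 and 2.83, which are 4 counts in the mutant, a pooled ratio of 23.5 with a counting interval of 9.01 to 87.5. The strains did not overlap in either gene. Of 47 UDP-glucuronosyltransferase genes 10 fell and 3 rose, where 1 fell without either *sin-3* library. Over all genes tested 12.6% were called higher and 12.6% lower, and MATH and BATH genes were near this with 15% and 8.33%. Of 212 F-box genes, whose products select proteins for degradation, 32 rose (15.1%) and 22 fell (10.4%), also near the shares over all genes. The numbers were 10 and 8 without *sin-3* replicate 1, 20 and 9 without *sin-3* replicate 2 and 19 and 19 without wild-type replicate 3. Of 60 MATH and BATH genes 9 rose and 5 fell, and 4 rose without either *sin-3* library. By the quasi-likelihood test 0 of them fell without *sin-3* replicate 1, 1 without *sin-3* replicate 2 and 2 without wild-type replicate 1 or 2, where 6 rose.

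**Figure D5:**
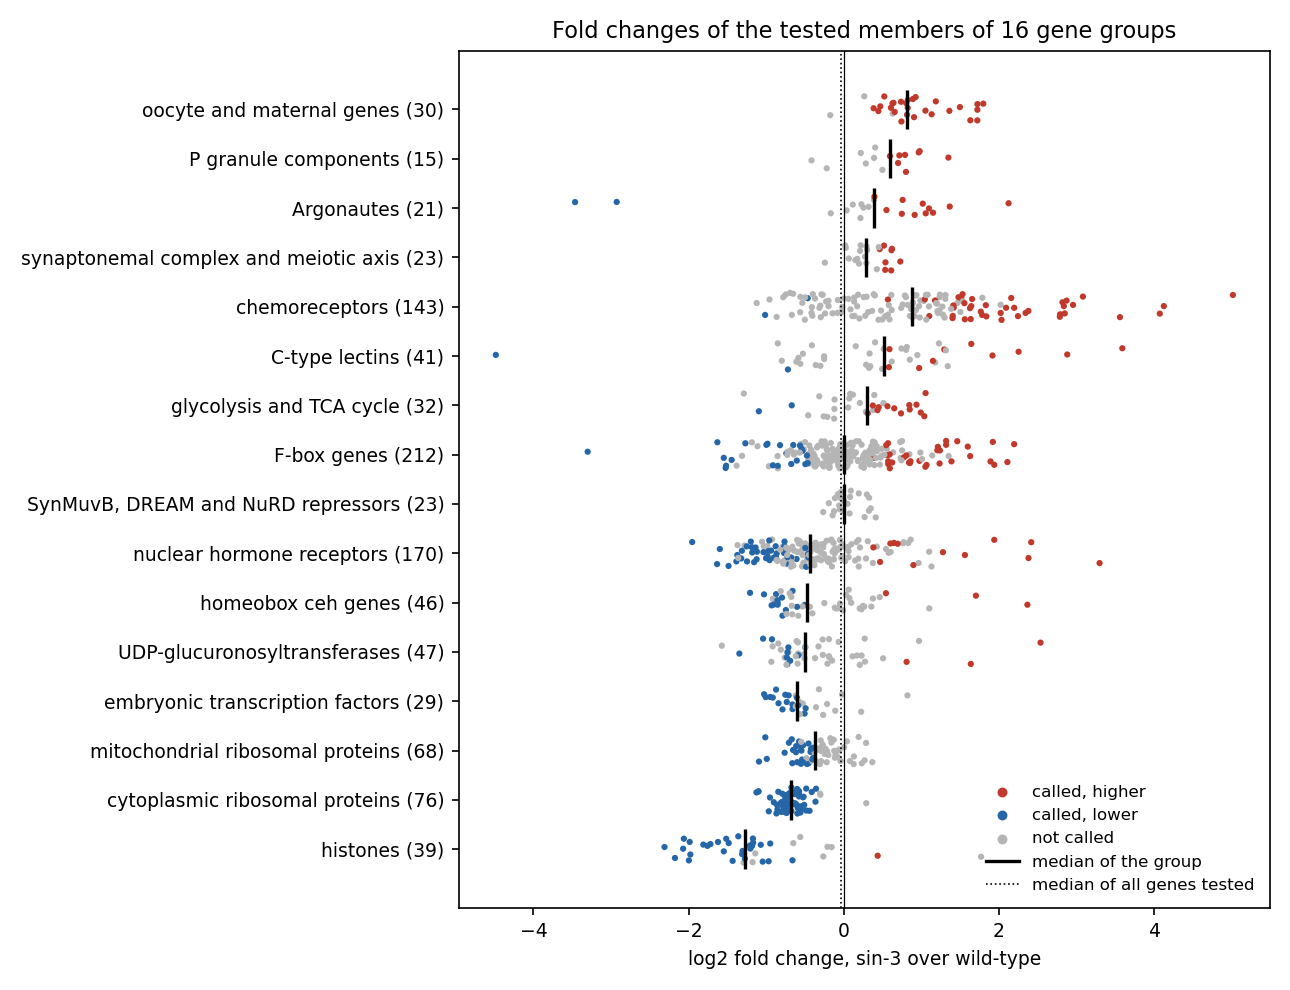
Log2 fold change of *sin-3* over wild-type (horizontal axis) for the tested members of 16 gene groups, 1 point per gene, with red for called higher, blue for called lower, grey for not called, a bar at the median of each group and a dotted line at the median of all genes (-0.03). Maternal genes lie to the right and ribosomal protein and histone genes to the left of 0, and the chemoreceptor row holds all 143 tested genes whose names fit the pattern, 15 of them of other families.

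None of 23 tested repressor genes of the SynMuvB, DREAM and NuRD group was called by edgeR's quasi-likelihood test, where 5 rose and 1 fell at an unadjusted p under 0.05 and DESeq2 called 2 higher and 1 lower. None of 5 genes for methyltransferases of lysine 27 or 36 of histone H3 was called. Of 33 proteasome genes 4 rose and 1 fell, the latter *rpn-6.2*, with 115, 230.3 and 176 normalised counts against 60.3 and 63.1 (log2 fold change -1.49, quasi-likelihood adjusted p = 0.00522). It was not called without *sin-3* replicate 1 (quasi-likelihood adjusted p = 0.0607) or replicate 2 (0.0516). Of the 33 genes 0 were called by the same test without *sin-3* replicate 1 or 2, and 0 rose without wild-type replicate 1. Of 31 cell cycle genes 6 rose (19.4%) and 2 fell (6.45%), and of 25 DNA replication genes 2 rose (8%) and 1 fell (4%). By the quasi-likelihood test 1 cell cycle gene rose and 0 fell without *sin-3* replicate 1 or 2, and 2 rose and 1 fell without wild-type replicate 1. Of the replication genes 0 rose without *sin-3* replicate 1 or 2 or wild-type replicate 1, and 2 fell without the last. *hsp-16.2*, a heat-inducible small heat-shock protein gene, had 14489, 10574 and 11229.6 normalised counts in wild-type and 15106 and 11203 in *sin-3* (0.12, standard error 0.76, quasi-likelihood adjusted p = 0.927), with the strains overlapping.

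Markers of differentiated cells and of other tissues were checked as well. Of 18 sarcomere genes 1 rose, of 16 neuron genes 1 rose and 1 fell, and of 12 intestine genes 1 rose and 3 fell. Summed normalised counts of the sarcomere list were 26139 to 37222 in wild-type and 30324 and 33477 in *sin-3*, so the strains overlapped. Those of the intestine list were 10828 to 14116 in wild-type and 7312 and 8020 in *sin-3*, a ratio of 0.641, but by the quasi-likelihood test 0 of its genes were called without *sin-3* replicate 1, and 2 fell and 0 rose without *sin-3* replicate 2 or wild-type replicate 3. Its 1 increase was also lost without wild-type replicate 2. The part of intestine RNA in other results was not tested. Wild-type replicate 1 stood apart from the other wild-type libraries in the muscle myosin gene *myo-3*, with 499 normalised counts against 93.8 and 177, and *sin-3* libraries had 125 and 243. Of 56 collagen genes 4 rose (7.14%) and 6 fell (10.7%), less than the 12.6% of all genes tested called in either direction. Of these collagen genes 3 fell without wild-type replicate 1 and 2 without wild-type replicate 2. Without *sin-3* replicate 1 or 2 the quasi-likelihood test called 2 collagen genes higher and 0 lower. Their sum was 22168 to 43027 in wild-type and 18888 and 23506 in *sin-3*. The 6 vitellogenin genes, which encode yolk proteins of the adult intestine, summed to 25.6 to 42.7 normalised counts in wild-type and 36.7 and 49.4 in *sin-3*, low values in both strains.

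Loci other than protein-coding genes were tested in a fit of all gene types. Of the 670 loci, 101 were called higher (15.1%) and 68 lower (10.1%). Most were pseudogenes, of which 453 were tested, 66 called higher and 50 lower. Of 42 long intergenic non-coding RNA genes 5 were higher and 9 lower, and of 69 loci annotated as other non-coding RNA 14 were higher and 4 lower. The long intergenic RNA gene *F31A9.2* had 131, 122 and 118 normalised counts in wild-type and 20.6 and 6.6 in *sin-3* (log2 fold change -3.25, standard error 0.41, quasi-likelihood adjusted p = 0.000479). It was named after its values were seen, and the strains did not overlap.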

How the data were processed

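Early embryos of wild-type and *sin-3* strains were compared by RNA-seq of polyadenylated RNA (strand-keeping protocol). According to the labels and the study's methods, reads were mapped with RNA-STAR 2.4.1d (WS254), filtered with SAMtools 0.1.19 and counted per gene with htseq-count 0.7.2, whose strand setting is not given in the sources used here. The authors deposited raw counts, 1 column per library. Their tables of fold changes and p-values were not used.

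Counts were modelled by edgeR 4.0.16 (R 4.3.3), with TMM factors (0.94 to 1.1) over the tested genes, 1 mean per strain over 11 libraries and the quasi-likelihood test. Genes were called under 0.05 after Benjamini-Hochberg adjustment. As standard error was taken the size of the log2 fold change divided by the square root of F. The square root of the common dispersion was 0.173. Protein-coding genes with a mean normalised count above 10 were tested, and methods were tested on simulated data. Exon lengths and positions came from the Ensembl release 115 annotation of WBcel235. Tables were made with Python 3.11.15. Amplified copies cannot be told from separate molecules, so intervals cover counting error only.

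Named genes were the 12 largest called changes in each direction (at least 100 normalised counts in the higher strain, strains not overlapping), the 6 largest in each direction among genes with at least 2000 in wild-type, up to 3 called members of each list in each direction, the complexes, genes at the limit of 3 counts, *pes-10* and *hsp-16.2*. Members and lists, chosen by gene name, were selected with earlier results of these data known. Alternatives were DESeq2 1.42.0 with its size factors, other factors and filters, all gene types, 5 libraries alone, a replicate block, the age score, an adjusted p under 0.01, each library left out and, chosen after seeing the data, TMM factors over all identifiers and the B number as a block.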

Additional observations from a re-analysis of the deposited data

Results flagged for a closer look

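The data outside the protein-coding comparison held 6 loci that rose by more than any other called non-coding locus, by log2 fold changes of 4.013 for *21ur-9391*, 3.682 for the pseudogene WBGene00021889, 3.437 for *21ur-963*, 3.358 for the pseudogene WBGene00014993, 3.353 for the non-coding RNA gene *F57A8.9* and 3.253 for *21ur-6478*. The 3 *21ur* loci are annotated as piRNA genes on chromosome IV and lie 4.325, 2.389 and 3.471 kb from *srv-14*, whose log2 fold change was 2.85. The libraries were made from polyadenylated RNA, and which transcripts gave the reads at these 3 loci was not tested. WBGene00014993 lies 0.438 kb from *srt-22* (2.79) and WBGene00021889 1.147 kb from *samt-1* (1.46). *F57A8.9* overlaps *F57A8.1*, for which the value was -0.60 (quasi-likelihood adjusted p = 0.182).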

How the results depend on the processing

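None of the called genes changed direction under any alternative other than the age score and the B number as a block. The number of genes called higher and lower moved by over 1.5 times at an adjusted p under 0.01 (642 and 582) with the age score as a covariate (2 and 3) and, by edgeR's quasi-likelihood test, with the B number as a block, chosen after seeing the data (0 and 0, lowest adjusted p = 0.408). With 1 library left out it ranged from 577 to 1770 higher and from 335 to 1839 lower, the highest without *set-2* replicate 2, and the share of calls that were higher went from 50.1% to 63.3% without *sin-3* replicate 1. Every other alternative gave 1289 to 2059 higher and 1296 to 1796 lower, among them DESeq2 with 1714 and 1499, of which 1419 and 1400 were also called by edgeR. Replicate numbers shared by the strains were used as a replicate block, which gave 1572 and 1543. Only numbers 1 and 2 occur in both strains, the deviations of same-numbered libraries correlated at -0.325 and -0.23, and the labels do not tie them, so the numbers are not taken as pairing. The deviations of the 2 *sin-3* libraries from their mean are equal and opposite. The correlations with the crossed numbers, 0.23 and 0.325, are therefore the same values with the sign turned and add nothing.

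With the age score as a covariate these log2 fold changes turned their sign: *athp-1* (-0.30), *cfp-1* (-0.15), *spe-41* (-0.024), *srsx-5* (-1.04), *srv-14* (-1.84), *W03F11.4* (-0.72), *F49H12.7* (-1.01), *cpr-2* (-0.40), *T04B8.1* (-0.43), *nob-1* (0.20), *vab-7* (0.025), *meg-2* (-0.44) and *pgl-1* (-0.60). *nob-1* and *vab-7* belong to the transcription factor list that enters the score, so their turn is in part built in. The cause of the other turns was not tested. The *sin-3* arm of 2 libraries limits every call, and where 1 of them is left out the other is assumed to vary like the other groups. Genes with few counts carry wide intervals.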
